A study of Danio rerio with 43 samples.

Results

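Between the bud stage, when gastrulation of the zebrafish embryo is complete, and 24 hours after fertilisation (24 hpf), the wild-type embryo forms its muscle, heart, blood, nervous system, eyes and skin. The change over this interval was measured by setting 4 wild-type libraries of 24 hpf against 4 wild-type libraries of the bud stage, 8 of the 43 libraries in the study, chosen by their stage and genotype labels alone. Each library came from a pool of whole embryos, and its polyadenylated RNA was read from the 3′ end (QuantSeq). The 24 hpf group is labelled 24 hpf, wild type, strain Tab5, and the bud group 10 hpf, wild type, strain Tab5. Embryos were raised at 28.5 °C and the labels name no agent. A further 8 libraries of embryos with the genotype rif1 omf201/omf201, strain Tab5, called rif1 mutants here, at the same stages (4 of 24 hpf and 4 of bud), served only to compare the same interval, and the 14 wild-type libraries of the 1-cell, 256-cell, dome and shield stages served only to show the earlier course of the named genes.

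As background, the zebrafish gastrula is patterned by opposed signals. Bmp and Wnt ligands act on the ventral and posterior side and their secreted inhibitors come from the dorsal organizer, while T-box and homeodomain factors translate these signals into germ layers. Segmentation follows, with somites cut off from the tailbud under an oscillating Notch and Her circuit. By 24 hpf (prim-5) the heart beats, primitive red cells circulate, the first muscle fibres contract and pigment begins to appear. The genes below are ordered by these roles, tissue by tissue, and then by the gastrula programmes.

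The deposited counts summed to between 9554209 and 10506636 per library at 24 hpf and between 7313293 and 8453133 at bud. At least 1 count was seen for 15715 to 16627 gene entries at 24 hpf and for 12945 to 14005 at bud, and the 10 most abundant entries took 9.28% to 9.48% of the counts at 24 hpf, against 11.2% to 11.5% at bud. Across genes, log2 values correlated at 0.956 to 0.966 between 24 hpf replicates, at 0.939 to 0.955 between bud replicates and at 0.667 to 0.690 between the stages. Bud replicate 2 was the least like its group: it had the fewest entries with a count (12945) and the lowest correlations with the others (0.939 to 0.944). Without it 7824 entries were called in place of 7398. The filter then passed 13108 entries in place of 12323, so the rise in calls does not measure how far this replicate deviates. The typical gene-wise variation between replicates was 0.223 at 24 hpf and 0.342 at bud (biological coefficient of variation), so the bud values carry the larger error. No label says that the pools came from separate clutches, so p-values measure the spread between these samples, which may be technical. The gene rif1 itself, which encodes a regulator of replication timing, had 625 to 757 counts in the 24 hpf and 587 to 756 in the bud libraries of wild type. In the mutants it had 48 to 108 counts at 24 hpf and 71 to 90 at bud. Within wild type, rif1 stood at 71.4 ± 4.94 CPM (read counts brought to a common library size by the TMM method) at 24 hpf and 84.3 ± 8.89 CPM at bud (SD, n = 4 each), and its log2 fold change of -0.24 ± 0.11 (SE) did not pass the threshold (edgeR adjusted p = 0.0802). This is the one named gene whose call turned with the scaling: with library totals alone its change was -0.45 (edgeR adjusted p = 0.00237), and without wild-type bud replicate 2 it was -0.30 (edgeR adjusted p = 0.0288).

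A gene was called when the adjusted p of edgeR's quasi-likelihood test was under 0.05, over all 12323 entries that passed the filter on low counts. Of these, 7398 (60%) were called, 4237 higher at 24 hpf (34.4%) and 3161 lower (25.7%), and 4925 were not. The balance shifted with size. At changes of at least 1 log2 unit (4971 entries, 40.3%) 3340 entries (27.1%) were higher and 1631 (13.2%) lower, and at 2 log2 units 2268 (18.4%) were higher and 577 (4.68%) lower. In 7018 entries (57%) the 4 libraries of one stage did not overlap with the 4 of the other. The median log2 change of all entries tested was 0.13. This balance rests on the scaling: with library totals alone 3681 entries were higher and 3967 lower, a median shift of -0.21 log2 units, while the RLE factors gave 4343 and 3006. An entry with hardly any counts at bud passed the filter only through its 24 hpf counts and then had to differ, so the counts per list below describe the entries tested, not all entries of a list, and are to be read against the 34.4% and 25.7% of all entries.

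**Figure D1:**
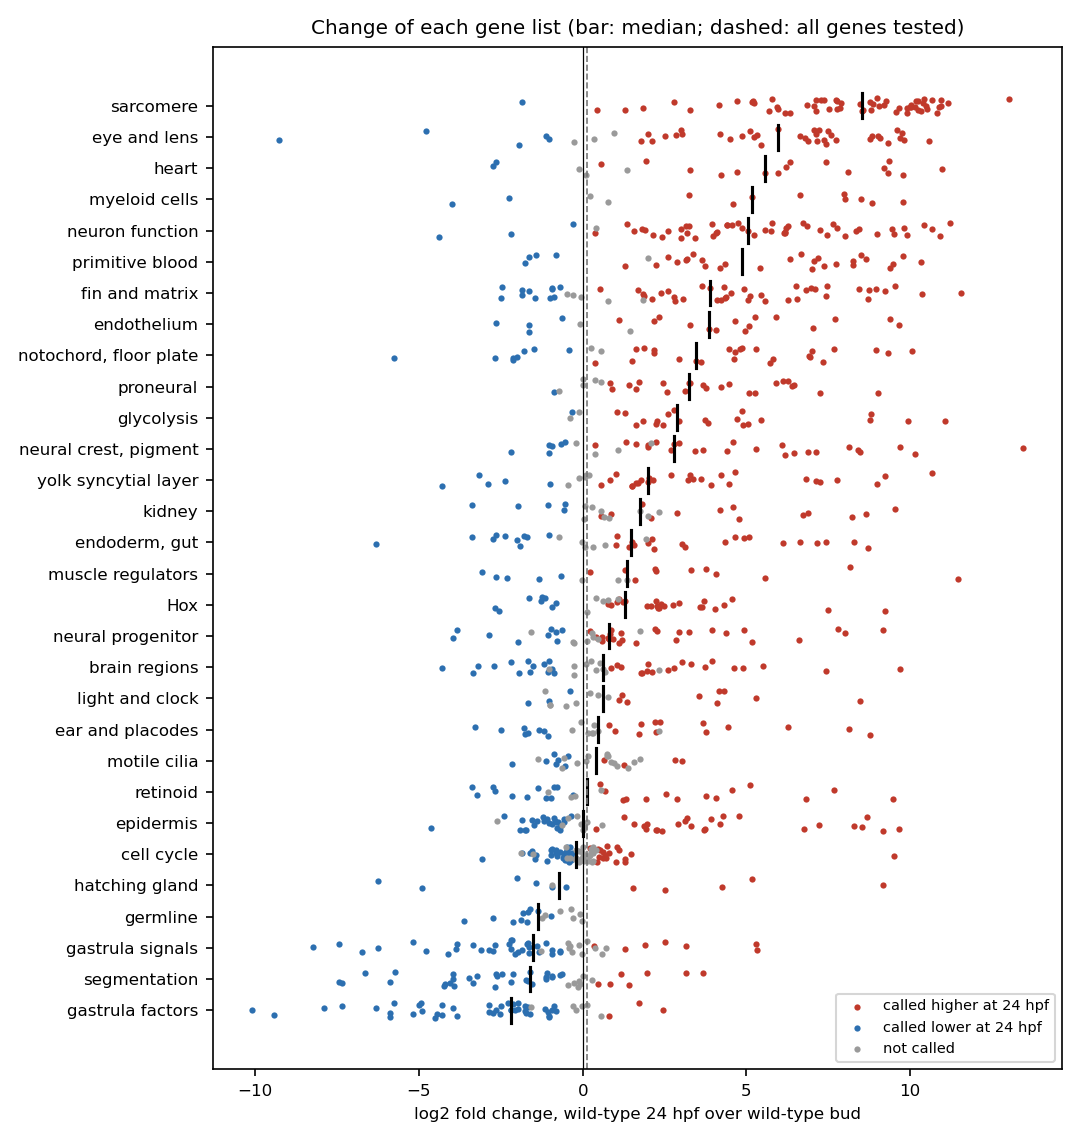
Log2 fold change of each tested entry of the 30 gene lists, wild-type 24 hpf over wild-type bud (horizontal axis); each point is one gene entry, the black bar is the median of the list, and the dashed line is the median of all entries tested, 0.13. Sarcomere entries lie farthest to the right (median 8.54), and gastrula factors, segmentation and gastrula signals lie at the bottom (medians -2.19, -1.62 and -1.51). Among the points beyond about 8 log2 units are entries with almost no count in one group, whose position depends on the prior count. Not all are of this kind: the globin entry hbae3 lies at 8.25 with 283 counts at bud.

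The contractile apparatus of muscle rose almost as a whole. Of 73 sarcomere entries 62 were tested, of which 61 rose and 1, a troponin I entry at 1.76 CPM at 24 hpf and 6.41 CPM at bud, fell. The median log2 change was 8.54, or 7.81 with the 5 entries at 0 counts in the bud libraries set to their lower bound. Together the sarcomere entries took 4.37% to 4.53% of all counts in the 24 hpf libraries, against 0.0916% to 0.133% in the bud libraries. The gene ldb3b (ENSDARG00000099974), which encodes a Z-disc protein, had 93.7, 129, 122 and 124 CPM in the 24 hpf libraries and no count in any bud library. That is at least 324-fold higher at 24 hpf, with a floor of 3 counts per library (edgeR adjusted p = 1.23e-13). Slow and cardiac troponin C, tnnc1 (ENSDARG00000037539), had 289.6, 306, 334 and 312 CPM at 24 hpf, against 0, 0, 0.258 and 0.221 CPM at bud, a log2 fold change of 11.17 ± 0.23. The groups of both genes lay far apart, and the rule for naming genes admitted only groups that do not overlap. Cardiac-type alpha actin actc1b (ENSDARG00000099197) was already counted at bud: it had 6818, 7112, 7021 and 7425 CPM at 24 hpf, against 40.5, 36.3, 55.0 and 50.9 CPM at bud, and gained 7.28 log2 units (SE 0.12; edgeR adjusted p = 3.12e-17). In a pool of whole embryos, more cells of a type and more RNA per cell cannot be told apart, nor can a longer poly(A) tail from more molecules.

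Among the factors that switch muscle on, the change went both ways. Of 19 muscle regulators tested, 11 rose, 5 fell and 3 were not called (median 1.36). Myogenin, myog (ENSDARG00000009438), which drives terminal differentiation, had 41.9, 29.5, 37.9 and 50.2 CPM at 24 hpf and no count in any bud library, at least 109.9-fold higher (edgeR adjusted p = 5.72e-11). The fusion protein myomaker, mymk, had 17.9, 9.75, 8.92 and 14.4 CPM at 24 hpf and 1 count in 1 bud library, a ratio of 426 (95% counting interval 76.0 to 16846). The early determination factor myf5 (ENSDARG00000007277) went the other way, with 4.44, 6.16, 10.1 and 7.35 CPM at 24 hpf, against 57.8, 47.0, 63.7 and 68.6 CPM at bud. It fell by 3.08 log2 units (SE 0.22; edgeR adjusted p = 1.11e-09), as did prdm1, a regulator of the slow fibre fate, which averaged 19.4 ± 3.59 CPM at 24 hpf and 95.8 ± 6.68 CPM at bud (SD, n = 4 each). The 2 stages did not overlap in any of these genes, which the rule for naming them required. The determination factor myod1, chosen after its values were seen, rose, averaging 56.3 ± 2.99 CPM at 24 hpf and 22.8 ± 2.59 CPM at bud (log2 fold change 1.304 ± 0.15, edgeR adjusted p = 3.92e-07).

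The heart list, which shares actin and titin entries with the sarcomere list, held 21 tested entries, of which 16 rose, 2 fell and 3 were not called (median 5.56, or 4.53 with 4 entries at their bound). The light chain gene cmlc1 (ENSDARG00000032976) had 65.9, 64.8, 71.3 and 62.4 CPM at 24 hpf, against 0.121, 0, 0 and 0.110 CPM at bud, a ratio of 1095 (95% counting interval 303 to 9049). The membrane protein gene popdc2, which is needed for heart rhythm, had 6.503, 10.8, 8.59 and 10.7 CPM at 24 hpf and no count at bud, at least 25.2-fold higher (edgeR adjusted p = 1.91e-07). The zinc finger factors gata5 and gata6, which act in the heart field and the endoderm, were already strongly expressed at bud. They had 20.5, 25.8, 20.4 and 16.4 CPM (gata5) and 47.9, 31.3, 32.1 and 34.2 CPM (gata6) at 24 hpf, against 122, 121, 138 and 136 CPM and 244, 275, 224 and 229.9 CPM at bud. They fell by 2.64 ± 0.14 and 2.74 ± 0.13 log2 units (edgeR adjusted p = 1.06e-11 and 3.16e-12). They were the 2 falls of the list. Other heart factors, chosen after their values were seen, did not fall: tbx5 rose, with 4.34, 2.80, 1.40 and 1.23 CPM at 24 hpf and no count at bud (edgeR adjusted p = 0.000314), hey2 rose by 1.93 ± 0.38 log2 units (edgeR adjusted p = 0.000257), and hand2 was not called, at 29.8 ± 4.22 CPM at 24 hpf and 27.9 ± 9.18 CPM at bud (SD, n = 4 each).

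Primitive blood moved in the same direction as muscle. Of 32 tested entries 27 rose, 4 fell and 1 was not called (median 4.87, or 4.26 with 3 entries at their bound), and the list took 0.833% to 1.09% of the counts at 24 hpf, against 0.0266% to 0.0383% at bud. The embryonic alpha globin hbae1.3 (ENSDARG00000089124) had 554, 502, 425 and 481 CPM at 24 hpf, against 0.121, 0, 1.16 and 0.882 CPM at bud, a log2 fold change of 9.78 ± 0.28 (edgeR adjusted p = 3.64e-13). Globin genes lie as near copies, so reads may be shared among them. The red cell membrane gene epb41b had 24.8, 13.9, 22.2 and 12.4 CPM at 24 hpf and no count at bud, at least 50.5-fold higher (edgeR adjusted p = 7.87e-09). Its spread at 24 hpf was wide, but every library lay far above the floor. Of the 4 that fell, the red cell carbonic anhydrase cahz had 53.5, 45.8, 35.7 and 50.8 CPM at 24 hpf, against 184, 85.8, 136 and 171 CPM at bud (log2 fold change -1.63 ± 0.20, edgeR adjusted p = 6.19e-06). The zinc finger gene znfl2a averaged 14.98 ± 2.86 CPM at 24 hpf and 50.9 ± 6.46 CPM at bud, and the others were klf17 and nt5c2l1.

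In the vessels, 15 of 21 tested endothelial entries rose, 4 fell and 2 were not called (median 3.86, or 3.29 with 2 entries at their bound). The junction gene cdh5, VE-cadherin (ENSDARG00000075549), had 43.5, 33.1, 26.5 and 38.4 CPM at 24 hpf and 1 count in 1 of the 4 bud libraries, a ratio of 1178 (95% counting interval 211 to 46543). The blood and vessel factor tal1 had 8.67, 5.16, 10.4 and 13.5 CPM at 24 hpf and no count at bud, at least 26.0-fold higher (edgeR adjusted p = 2.95e-07). The apelin receptors aplnra and aplnrb, which guide mesoderm migration in the gastrula and later mark vessels, fell by nearly the same amount. They averaged 46.2 ± 5.45 and 44.7 ± 4.82 CPM at 24 hpf, against 143 ± 10.4 and 138 ± 10.8 CPM at bud (SD, n = 4 each), and both fell by 1.63 ± 0.11 log2 units (edgeR adjusted p = 6.1e-10 and 6.05e-10).

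For the myeloid list, as for the endothelial list, the entries and the sum of counts pointed in opposite directions. Of 13 tested entries 9 rose, 2 fell and 2 were not called (median 5.17, or 3.82 with 4 entries at their bound), yet the list took 0.0113% to 0.0127% of the counts at 24 hpf, against 0.0594% to 0.0635% at bud. The gene lcp1 held most of the counts of the list at bud. L-plastin, lcp1 (ENSDARG00000023188), an actin bundler used as a leukocyte marker at later stages, had 31.3, 32.1, 41.4 and 27.4 CPM at 24 hpf, against 542, 511, 520.3 and 548 CPM at bud, and fell by 4.01 ± 0.11 log2 units (edgeR adjusted p = 1.79e-15). The leukocyte actin regulator coro1a had 16.2, 13.2, 10.2 and 10.3 CPM at 24 hpf and no count at bud, at least 34.4-fold higher (edgeR adjusted p = 2.92e-08), and the Fc receptor subunit fcer1gl was at least 14.2-fold higher. The NADPH oxidase subunit cyba averaged 3.09 ± 1.62 CPM at 24 hpf and 14.9 ± 3.25 CPM at bud, a log2 fold change of -2.27.

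In the nervous system most tested entries of the proneural list and of the list of mature neuron genes rose. The proneural list holds factors that commit progenitors to the neuronal fate, and also Notch ligands and genes of neuron subtypes. Of its 29 tested entries 23 rose, 1 (olig4) fell and 5 were not called (median 3.26). Among commitment factors chosen after their values were seen, ascl1b rose by 4.48 ± 0.27 log2 units. The factor neurog1 was not called, at 47.8 ± 2.99 CPM at 24 hpf and 36.7 ± 11.6 CPM at bud (edgeR adjusted p = 0.106). Of 55 entries with a function in mature neurons, 51 rose, 3 fell and 1 was not called (median 5.04, or 4.74 with 6 entries at their bound), and this list took 0.547% to 0.584% of the counts at 24 hpf, against 0.148% to 0.156% at bud. Beta-synuclein, sncb (ENSDARG00000104945), a presynaptic protein, had 27.2, 43.4, 34.6 and 29.7 CPM at 24 hpf and no count in any bud library, at least 92.9-fold higher (edgeR adjusted p = 1.22e-10). The secretory granule gene scg2b had 14.6, 13.1, 13.4 and 13.2 CPM at 24 hpf and no count at bud, at least 37.4-fold higher. In the proneural list, pou4f2, which acts in retinal ganglion cells, had 9.50, 7.40, 5.05 and 6.94 CPM at 24 hpf and none at bud (at least 19.9-fold). The gene prdm8 of that list had 12.3, 4.93, 10.8 and 8.37 CPM at 24 hpf, against 0.121, 0, 0 and 0.221 CPM at bud, a ratio of 101 (95% counting interval 34.4 to 494).

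Progenitor and regional genes of the brain were more evenly split. Of 43 neural progenitor entries 26 rose, 9 fell and 8 were not called (median 0.79), and of 43 brain region entries 19 rose, 14 fell and 10 were not called (median 0.61). The share of counts of the progenitor list differed little, at 0.516% to 0.552% at 24 hpf and 0.492% to 0.524% at bud, and these ranges overlap. The glial filament gene gfap (ENSDARG00000025301) had 131, 102, 129 and 114 CPM at 24 hpf, against 0.968, 0.124, 2.45 and 1.32 CPM at bud, a log2 fold change of 6.60 ± 0.30 (edgeR adjusted p = 1.44e-11). The POU factor pou3f3a averaged 60.3 ± 3.36 CPM at 24 hpf and had 3 counts in all at bud, a ratio of 667 (95% counting interval 228 to 3235). The midbrain-hindbrain genes her5 and her11, repressors that hold back neurogenesis at that boundary, fell. They had 2.27, 0.448, 3.44 and 0.613 CPM (her5) and 2.37, 2.24, 6.23 and 2.55 CPM (her11) at 24 hpf, against 23.5, 18.98, 29.9 and 26.0 CPM and 36.6, 59.8, 56.7 and 56.4 CPM at bud, changes of -3.85 ± 0.45 and -3.96 ± 0.30 log2 units. At the same boundary en1b rose, with 37.7, 46.3, 50.5 and 38.6 CPM at 24 hpf, against 0, 0, 0 and 0.882 CPM at bud (log2 fold change 7.42 ± 0.51, edgeR adjusted p = 1.37e-09). The forebrain gene dlx1 rose too, averaging 25.6 ± 4.66 CPM at 24 hpf and 0.858 ± 0.590 CPM at bud. The homeodomain gene irx7, active in the neural plate, fell by 4.31 ± 0.13 log2 units, averaging 13.9 ± 2.60 CPM at 24 hpf and 276 ± 21.5 CPM at bud, and gata2 averaged 6.53 ± 2.82 CPM at 24 hpf and 60.4 ± 9.89 CPM at bud.

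Of 45 tested eye and lens entries 37 rose, 5 fell and 3 were not called (median 5.96, or 4.86 with 7 entries at their bound). Gamma crystallin crygm2d13 (ENSDARG00000057460), a lens protein gene outside this list and among the 6 largest rises of all named genes, had 49.2, 38.3, 43.7 and 35.4 CPM at 24 hpf and no count at bud, at least 115-fold higher (edgeR adjusted p = 2.14e-11). Its relative crygm2d3, a member of the list, was at least 59.0-fold higher, and beta crystallin cryba1b had 119, 119, 129 and 116 CPM at 24 hpf, against 0.121, 0, 0.129 and 0.221 CPM at bud. Gamma crystallins are near copies of each other, so reads may be shared among them. The eye field gene rx3 (ENSDARG00000052893) had 10.7, 8.07, 5.37 and 9.70 CPM at 24 hpf, against 257, 209, 225 and 244 CPM at bud, and fell by 4.78 ± 0.16 log2 units (edgeR adjusted p = 2.87e-14). The homeodomain gene six7 (ENSDARG00000070107) had 0.103, 0.112, 0.322 and 0 CPM at 24 hpf, against 83.9, 106, 98.8 and 72.9 CPM at bud, and fell by 9.27 ± 0.32 log2 units (edgeR adjusted p = 2.89e-14), leaving at most 3 counts in a 24 hpf library. The retinal homeobox gene rx1, chosen after its values were seen, rose, averaging 24.3 ± 2.45 CPM at 24 hpf and 0.152 ± 0.229 CPM at bud (log2 fold change 7.204 ± 0.51, edgeR adjusted p = 7.99e-10), and the pax6 entry ENSDARG00000103379, also chosen after its values were seen, rose by 2.11 log2 units. A second entry with the symbol pax6, ENSDARG00000045936, fell by 1.03 ± 0.32 log2 units (edgeR adjusted p = 0.00932).

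In the ear and placodes 13 of 29 tested entries rose, 8 fell and 8 were not called (median 0.46). The hair cell factor atoh1 had 27.2, 28.8, 24.6 and 25.8 CPM at 24 hpf, against 0, 0, 0.386 and 0.882 CPM at bud, a log2 fold change of 6.28 ± 0.51 (edgeR adjusted p = 5.13e-09). The otolith genes diverged. The otolith matrix gene otomp had 5.99, 6.05, 6.98 and 5.82 CPM at 24 hpf and no count at bud (at least 17.1-fold), while starmaker, stm (ENSDARG00000035694), had 38.9, 36.5, 33.8 and 32.0 CPM at 24 hpf, against 383, 336, 351 and 308 CPM at bud, and fell by 3.29 ± 0.10 log2 units. The placode competence factor foxi1 averaged 3.85 ± 1.74 CPM at 24 hpf and 22 ± 4.82 CPM at bud (edgeR adjusted p = 2.11e-06).

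Of 35 tested neural crest and pigment entries 25 rose, 6 fell and 4 were not called (median 2.78). The single largest rise of all named genes was seraf (ENSDARG00000103443), named in the chick for a factor of Schwann cell precursors. It had 151, 166, 171 and 147 CPM at 24 hpf and no count in any bud library, at least 437-fold higher (edgeR adjusted p = 1.02e-14). The melanin enzyme gene dct (ENSDARG00000006008) had 45.9, 55.4, 61.6 and 38.3 CPM at 24 hpf and 1 count in 1 bud library, a ratio of 1659 (95% counting interval 297 to 65577). The list members snai1a and tfap2a, the latter a crest specifier, fell, by 2.18 ± 0.13 and 1.04 ± 0.09 log2 units (edgeR adjusted p = 6.13e-11 and 1.64e-08). They averaged 38.6 ± 6.09 and 93.9 ± 8.002 CPM at 24 hpf, against 175 ± 21.2 and 193 ± 5.59 CPM at bud. The paralogue snai1b, chosen after its values were seen, fell too, averaging 8.56 ± 3.21 CPM at 24 hpf and 17.5 ± 5.44 CPM at bud (edgeR adjusted p = 0.0108). Other crest specifiers, chosen after their values were seen, rose: sox10 averaged 113 ± 31.2 CPM at 24 hpf and 8.87 ± 2.48 CPM at bud (log2 fold change 3.67 ± 0.23, edgeR adjusted p = 5.56e-10), and snai2 averaged 42.3 ± 4.60 CPM at 24 hpf and 10.6 ± 3.45 CPM at bud (log2 fold change 1.99 ± 0.22, edgeR adjusted p = 3.02e-07). The crest factor foxd3, also chosen after its values were seen, was not called, at 18.9 ± 5.80 CPM at 24 hpf and 21.7 ± 3.67 CPM at bud.

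Of 35 tested notochord and floor plate entries 25 rose, 8 fell and 2 were not called (median 3.47), and the list took 0.511% to 0.574% of the counts at 24 hpf, against 0.130% to 0.137% at bud. The homeodomain factor noto (ENSDARG00000021201), which sets notochord identity, had 0.619, 2.24, 0.215 and 0.511 CPM at 24 hpf, against 55.9, 37.5, 46.4 and 52.7 CPM at bud, and fell by 5.75 ± 0.39 log2 units (edgeR adjusted p = 1.08e-09). The T-box gene tbxta (Brachyury) and foxa2 and foxa3, chosen after their values were seen, fell as well, with log2 fold changes of -2.14, -1.79 and -2.01, while foxa1, also chosen after its values were seen, rose by 1.503 ± 0.18 log2 units (edgeR adjusted p = 6.97e-07). Collagen gene col9a1 had 16.7, 16.8, 13.2 and 12.7 CPM at 24 hpf and no count at bud, at least 40.9-fold higher (edgeR adjusted p = 7.76e-09), and calymmin, cmn, a sheath protein of the notochord, had 54.3, 40.7, 37.8 and 56.8 CPM at 24 hpf and 2 counts in all at bud, a ratio of 790.1 (95% counting interval 218 to 6529). The fin and matrix list had 39 of 55 tested entries higher, 11 lower and 5 not called (median 3.90, or 3.66 with 5 entries at their bound). Collagen I, col1a1a (ENSDARG00000012405), had 661, 629, 652 and 694 CPM at 24 hpf, against 0.242, 0.248, 1.80 and 1.21 CPM at bud, a log2 fold change of 9.53 ± 0.23 (edgeR adjusted p = 1.78e-14). The fin fold matrix gene frem3 was at least 23.5-fold higher at 24 hpf. The homeodomain gene msx1a and the hyaluronan synthase has2 fell, averaging 17.1 ± 4.42 and 2.86 ± 0.966 CPM at 24 hpf, against 97.0 ± 9.24 and 10.4 ± 2.25 CPM at bud.

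Epidermal genes, keratins among them, went both ways. Of 59 tested epidermal entries 26 rose, 24 fell and 9 were not called. Their median log2 change of 0.01 was near the 0.13 of all entries and turned negative, -0.20, with library totals alone. The list still took 3.28% to 3.33% of the counts at 24 hpf, against 2.07% to 2.29% at bud. The keratin krt99 (ENSDARG00000019365) had 31.2, 30.8, 32.8 and 35.6 CPM at 24 hpf, against 784, 820.2, 797 and 808 CPM at bud, and fell by 4.62 ± 0.08 log2 units (edgeR adjusted p = 3.91e-18). The keratin krt18a.1 had 266, 221, 251 and 270.4 CPM at 24 hpf, against 1393, 1169.8, 1372 and 1397 CPM at bud, a log2 fold change of -2.40. In the other direction krt1-19e (ENSDARG00000090268) had 203, 215, 217 and 192 CPM at 24 hpf, against 0, 0, 0.773 and 0.221 CPM at bud, a log2 fold change of 9.66 ± 0.29 (edgeR adjusted p = 1.02e-14). All 4 libraries of each stage lay apart in these 3 keratins, as the rule for naming genes required. The keratins krt4 and cyt1l, already abundant at bud, rose and are given below with the 4 largest gains in amount. They weigh heavily in the share of the list, and the share without them was not computed. The disulfide isomerase gene agr2, found in mucous cells, had 7.02, 10.2, 8.49 and 6.54 CPM at 24 hpf and no count at bud, at least 22.2-fold higher.

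The hatching gland, whose cells come from the prechordal mesoderm and store the enzymes that open the egg shell, was measured by 12 tested entries, of which 5 rose, 6 fell and 1 was not called (median -0.72). The hatching enzyme he1.2 (ENSDARG00000019122) had 2881, 2339, 2553 and 3117 CPM at 24 hpf, against 66.0, 79.4, 87.6 and 67.4 CPM at bud, a log2 fold change of 5.18 ± 0.12 (edgeR adjusted p = 6.02e-16). The prechordal factor goosecoid, gsc, had 3.51, 3.25, 1.72 and 0.204 CPM at 24 hpf, against 57.8, 81.1, 67.2 and 55.2 CPM at bud, and fell by 4.91 ± 0.40 log2 units (edgeR adjusted p = 7.58e-08). The secreted Wnt inhibitor frzb fell by 6.25 ± 0.34 log2 units.

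In the kidney 13 of 27 tested entries rose, 5 fell and 9 were not called (median 1.76). The salt transporter slc12a3 had 11.97, 12.2, 9.78 and 7.76 CPM at 24 hpf and no count at bud (at least 28.7-fold), and the sodium pump subunit atp1a1a.3 averaged 30.1 ± 3.83 CPM at 24 hpf with 2 counts in all at bud, a ratio of 499 (95% counting interval 138 to 4129). The intermediate mesoderm factor osr1 fell by 1.98 ± 0.22 log2 units, averaging 9.04 ± 1.72 CPM at 24 hpf and 35.6 ± 6.81 CPM at bud. In the endoderm and gut 20 of 36 tested entries rose, 10 fell and 6 were not called (median 1.46). The fibrinogen genes of the liver, fga and fgb, had 70.4, 94.3, 120.4 and 71.3 CPM (fga) and 62.7, 70.8, 80.1 and 63.8 CPM (fgb) at 24 hpf, against 0, 0.868, 0.129 and 0.110 CPM and 0.242, 0, 0.258 and 0.110 CPM at bud, log2 fold changes of 8.28 ± 0.40 and 8.72 ± 0.31. In the yolk syncytial layer, which feeds the embryo with lipoproteins, 27 of 37 tested entries rose, 5 fell and 5 were not called (median 2.00). The apolipoprotein apoea (ENSDARG00000102004) had 138, 155, 163 and 151 CPM at 24 hpf, against 0.242, 0, 0.258 and 0.441 CPM at bud, and apoa4a averaged 68.7 ± 12.6 CPM at 24 hpf and 0.122 ± 0.102 CPM at bud. The transfer protein mttp, which loads lipid onto apolipoprotein B, fell, with 45.1, 35.0, 45.9 and 41.3 CPM at 24 hpf, against 354, 413, 344 and 390.2 CPM at bud (log2 fold change -3.17 ± 0.11, edgeR adjusted p = 2.01e-14), and so did the cathepsin ctsl.1 (-4.30 ± 0.53).

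The Hox genes, whose order along a cluster matches their order of activation along the body, rose in most tested entries. Of 48 Hox entries 37 were tested, of which 24 rose, 8 fell and 5 were not called (median 1.29). In paralogue groups 10 to 13 the tested entries numbered 4, 3, 1 and 3, and all rose except hoxb10a in group 10. The medians of these groups were 2.25, 3.58, 4.32 and 7.50 log2 units, and that of the anterior group 2, with 2 tested entries, was 2.99. The median of group 13 is the value of hoxc13, which had 2 counts in all at bud. The genes hoxa13a, hoxc11 and hoxd12 had 0, 8 and 14. Entries this low at bud passed the filter only through 24 hpf and then had to differ, and the high medians rest partly on them. Groups 11 to 13 held 5, 3 and 6 entries in all, and those not tested were too low to test. The posterior gene hoxa13a (ENSDARG00000100312) had 11.0, 6.73, 5.48 and 10.8 CPM at 24 hpf and no count in any bud library, at least 23.5-fold higher (edgeR adjusted p = 4.2e-07). The gene hoxc11 had 8.36, 5.83, 3.97 and 5.92 CPM at 24 hpf, against 0.847, 0.124, 0 and 0 CPM at bud, a log2 fold change of 4.56 ± 0.85. The most abundant Hox transcripts at bud fell instead. The hindbrain gene hoxb1b (ENSDARG00000054033) had 63.7, 61.5, 68.3 and 52.6 CPM at 24 hpf, against 395, 327, 360.1 and 370.1 CPM at bud, and hoxb7 had 18.99, 14.12, 20.3 and 22.3 CPM at 24 hpf, against 99.2, 131, 124 and 128 CPM at bud. They fell by 2.56 ± 0.10 and 2.67 ± 0.15 log2 units (edgeR adjusted p = 1.47e-13 and 2.81e-11). The 8 falls were spread over groups 1, 3, 6, 7, 8, 9 and 10. As a share of all counts the Hox entries took 0.0686% to 0.0770% at 24 hpf, against 0.0896% to 0.0949% at bud, so the sum was lower at 24 hpf although most tested entries rose. In this sum hoxb1b weighs heavily, with 2317 counts in all at 24 hpf and 12054 at bud, and the share without it was not computed.

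**Figure D2:**
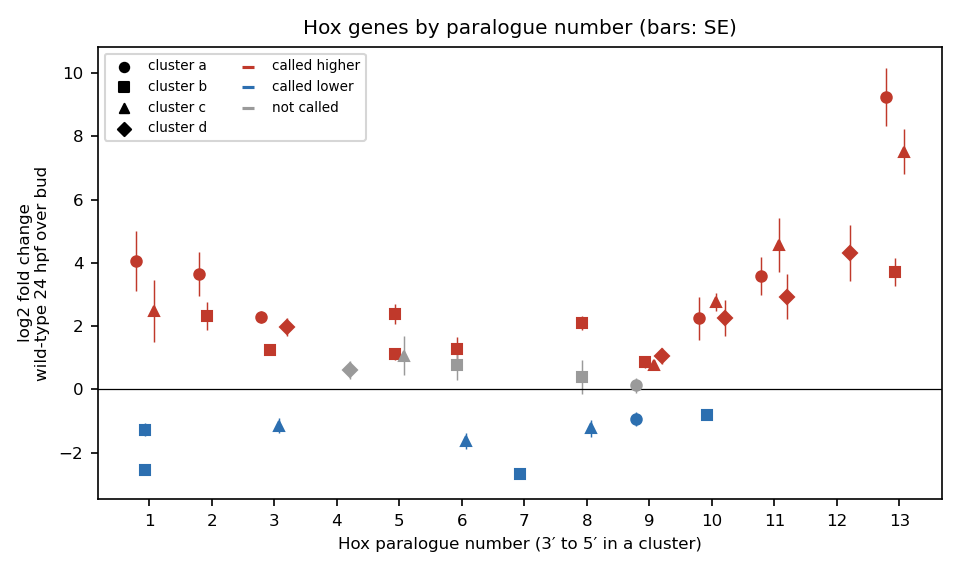
Log2 fold change of the 37 tested Hox entries, wild-type 24 hpf over wild-type bud (vertical axis), by paralogue number (horizontal axis); marker shape gives the cluster, colour the call, and bars the SE. All tested entries of groups 11 to 13 lie above 0, but several of them passed the filter only through their 24 hpf counts. The 5′ group 13 reaches 9.24 (hoxa13a, a value that depends on the prior count because bud held no count).

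The gastrula programmes fell together. Of 52 tested gastrula transcription factors 43 fell, 3 rose and 6 were not called (median -2.19), and the list took 0.133% to 0.146% of the counts at 24 hpf, against 0.513% to 0.536% at bud. Of 50 gastrula signalling entries 32 fell, 7 rose and 11 were not called (median -1.51). The lists share some members. The zinc finger gene znfl1l (ENSDARG00000094197) had no count in any 24 hpf library and 11.6, 20.5, 16.6 and 13.8 CPM at bud, at least 49.0-fold lower at 24 hpf (edgeR adjusted p = 7.32e-09). Pinhead, pnhd (ENSDARG00000039070), a secreted mesoderm factor in Xenopus, had 0, 0, 0.107 and 0.102 CPM at 24 hpf, against 46.3, 46.4, 29.1 and 64.4 CPM at bud, which was higher at bud by a ratio of 891 (95% counting interval 246 to 7363). The Bmp antagonist chordin, chrd (ENSDARG00000006110), had 5.06, 3.70, 4.62 and 5.82 CPM at 24 hpf, against 500.0, 474, 525 and 552 CPM at bud, and fell by 6.73 ± 0.13 log2 units (edgeR adjusted p = 5.26e-18). Sizzled, szl, which protects chordin from cleavage, had 1 count in 1 of the 24 hpf libraries and 13.3, 10.7, 14.0 and 10.9 CPM at bud, higher at bud by a ratio of 459 (95% counting interval 82.0 to 18190.2). Against this, the Wnt inhibitor sfrp5 and the Wnt ligand wnt11 rose, averaging 55.6 ± 6.097 and 38.8 ± 5.04 CPM at 24 hpf, against 9.81 ± 4.49 and 4.29 ± 1.76 CPM at bud, log2 fold changes of 2.50 ± 0.24 and 3.16 ± 0.27 (edgeR adjusted p = 5.28e-08 and 1.19e-08). The LIM homeodomain gene isl1 rose by 1.71 ± 0.27 log2 units, averaging 24.9 ± 3.72 CPM at 24 hpf and 7.6 ± 2.85 CPM at bud.

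Of 45 tested segmentation entries 31 fell, 7 rose and 7 were not called (median -1.62), and their share of counts was 0.213% to 0.226% at 24 hpf, against 0.657% to 0.691% at bud. The T-box gene tbx16 (ENSDARG00000007329), needed for trunk somites, had 0.516, 0.336, 1.504 and 0.715 CPM at 24 hpf, against 124, 135, 124 and 133 CPM at bud, and fell by 7.36 ± 0.23 log2 units (edgeR adjusted p = 8.33e-15). The clock repressor her7 had 0.206, 0.785, 0.537 and 0.102 CPM at 24 hpf, against 30.6, 50.7, 45.1 and 37.9 CPM at bud (-6.64 ± 0.37 log2 units, edgeR adjusted p = 2.56e-11). Its relative her12 rose, with 77.4, 80.03, 68.7 and 70.6 CPM at 24 hpf, against 32.4, 25.7, 34.4 and 39.6 CPM at bud (1.17 ± 0.14 log2 units, edgeR adjusted p = 1.25e-06). The presomitic factor msgn1, chosen after its values were seen, had the highest bud mean of the list and fell, averaging 22.4 ± 5.56 CPM at 24 hpf and 1193 ± 131 CPM at bud (SD, n = 4 each). The retinoic acid degrading enzyme cyp26a1 fell by 2.68 ± 0.10 log2 units, averaging 31.9 ± 2.25 CPM at 24 hpf and 204 ± 12.6 CPM at bud.

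Of 17 tested germline entries, which include maternal transcripts and genes also active outside germ cells (celf1, cxcr4), 10 fell and 7 were not called (median -1.36). The germ cell genes nanos3 and dazl, chosen after their values were seen, were not called (edgeR adjusted p = 0.556 and 0.551). Other germ cell genes of the list, also chosen after their values were seen, fell. These were ddx4, by 1.61 ± 0.30 log2 units, and tdrd7a, by 2.14 ± 0.54 (edgeR adjusted p = 0.000168 and 0.00231). The egg coat gene zp3b had 0.826, 0.448, 1.83 and 0 CPM at 24 hpf, against 9.68, 8.93, 9.91 and 10.6 CPM at bud, and elavl2 had 2.06, 2.13, 0 and 2.35 CPM at 24 hpf, against 11.4, 12.8, 10.3 and 9.49 CPM at bud, changes of -3.64 ± 0.63 and -2.73 ± 0.58 log2 units (edgeR adjusted p = 6.84e-05 and 0.000556). Cell cycle genes went both ways, mostly by small amounts: of 80 tested entries 19 rose, 33 fell and 28 were not called (median -0.20), and 7 rose and 7 fell by at least 1 log2 unit. With library totals alone 14 rose and 42 fell. Cyclin E, ccne1, had 10.4, 11.9, 19.4 and 10.7 CPM at 24 hpf, against 38.7, 40.8, 49.6 and 60.5 CPM at bud, and the origin licensing factor cdt1 had 10.0, 21.1, 20.4 and 14.5 CPM at 24 hpf, against 49.6, 44.8, 51.1 and 53.8 CPM at bud. They fell by 1.85 ± 0.22 and 1.60 ± 0.21 log2 units (edgeR adjusted p = 8.18e-07 and 2.3e-06). Thymidylate synthase, tyms, and the origin recognition subunit orc5 each rose by 1.3 log2 units, with SE 0.17 for tyms and 0.28 for orc5, averaging 57.1 ± 7.77 and 18.4 ± 3.84 CPM at 24 hpf, against 23.1 ± 4.45 and 7.46 ± 2.04 CPM at bud.

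Over all entries that met the naming rule, the 6 largest rises had no count in any bud library. Of these 6 largest rises, seraf, ldb3b, crygm2d13 and myog are described above. The calcium-binding protein gene s100a11 (ENSDARG00000093628) had 47.3, 48.6, 44.6 and 46.3 CPM at 24 hpf and no count at bud, at least 129-fold higher (edgeR adjusted p = 5.63e-12). The entry mir199-1a (ENSDARG00000083179) had 47.8, 38.2, 45.9 and 37.2 CPM at 24 hpf and none at bud (at least 116-fold). A mature microRNA carries no poly(A) tail, so these reads come from a longer transcript over that locus, and its precursor cannot be told apart from a host or overlapping RNA. Of the 6 largest falls, alox5b.3, of the lipoxygenase family, had 0.103, 0.112, 0 and 0.102 CPM at 24 hpf, against 21.3, 13.1, 26.7 and 42.2 CPM at bud, higher at bud by a ratio of 331 (95% counting interval 113 to 1606), and the others are znfl1l, pnhd, six7, szl and tbx16.

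**Figure D3:**
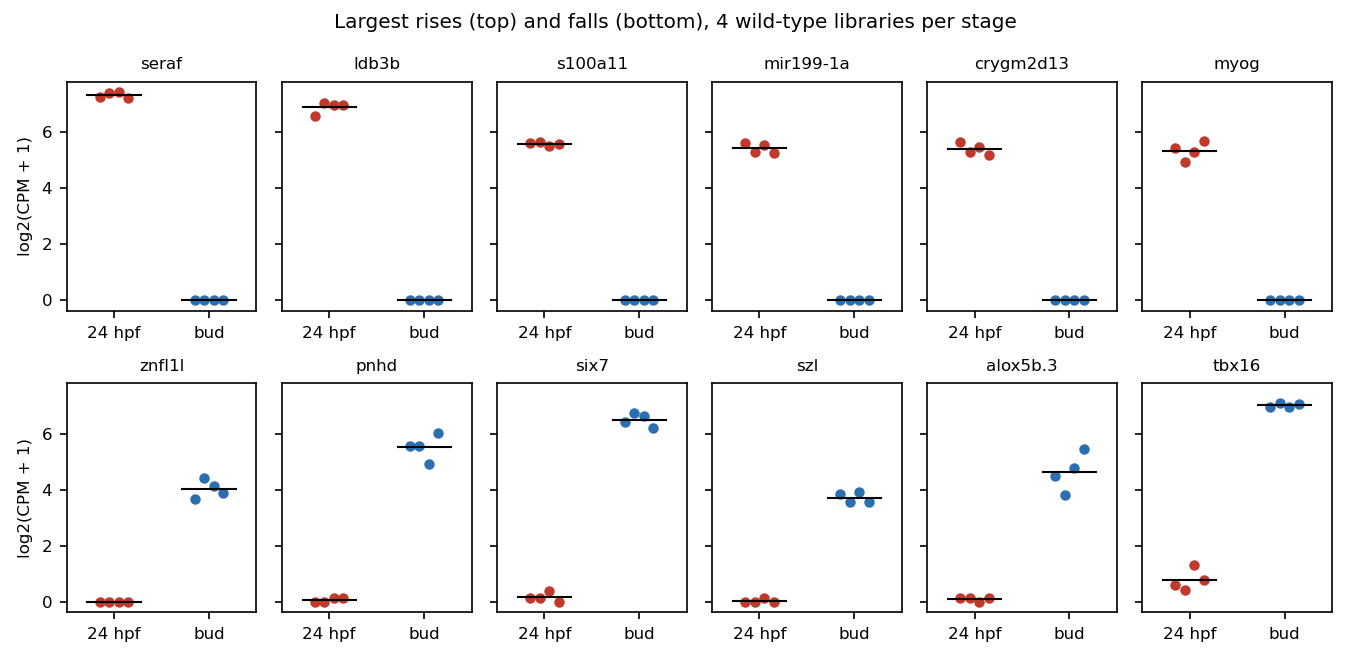
Level of the 6 largest rises (top row) and the 6 largest falls (bottom row) as log2(CPM + 1) on the vertical axis, with 24 hpf at the left and bud at the right of each panel; each point is 1 of 4 wild-type libraries and the line is the mean. The groups do not overlap in any panel, which the rule for naming genes required, and all 6 rising genes sit at 0 in every bud library.

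In amount, the largest gains and losses were of a few abundant transcripts. The periderm keratin krt4 (ENSDARG00000017624) had 10979.6, 11494, 11757 and 11338 CPM at 24 hpf, against 2961, 3387, 3161 and 2981 CPM at bud. The actin-binding peptide gene tmsb4x averaged 10211 ± 414 CPM at 24 hpf and 2871 ± 172 CPM at bud, and the keratin cyt1l averaged 7292 ± 158 CPM at 24 hpf and 809 ± 76.8 CPM at bud (SD, n = 4 each). With actc1b these were the 4 largest gains. The chromatin protein gene hmga1a (ENSDARG00000028335) was the most reduced, with 7034, 8002, 7972 and 7284 CPM at 24 hpf, against 17502, 18133, 17631 and 19332 CPM at bud. The small heat shock gene hspb1 (ENSDARG00000041065) had 655, 567, 640.0 and 606 CPM at 24 hpf, against 9135, 9408, 10235 and 9413 CPM at bud, and fell by 3.95 ± 0.07 log2 units (edgeR adjusted p = 2.06e-18). The RNA-binding gene cirbpb and the nucleosome-binding gene hmgn1a averaged 4049 ± 143 and 3581 ± 176 CPM at 24 hpf, against 8788 ± 182 and 8111 ± 151 CPM at bud. The losses of hmga1a, cirbpb and hmgn1a were of 1.12 to 1.26 log2 units, small as folds and large as amounts.

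More genes crossed the detection floor upwards than downwards. A gene was counted as starting when it was called higher and held at most 3 counts in each bud library, and as ending when it was called lower and held at most 3 counts in each 24 hpf library. By this count 652 entries started (5.29% of those tested, 15.4% of those called higher) and 49 ended (0.398% of those tested, 1.55% of those called lower). Most starting genes were low, with a median of 6.49 CPM at 24 hpf, and 236 reached 10 CPM. Most gastrula genes were reduced without ending: of the 43 gastrula factors that fell 5 ended, of the 32 signals 2, and of the 31 segmentation genes 1. In the deeper 24 hpf libraries 3 counts stand for a lower CPM than in the bud libraries. Ending genes had a median of 3.40 CPM at bud, and 11 of them reached 10 CPM, led by six7. The lists with the most starting entries were eye and lens (18 of 45 tested), sarcomere (15 of 62) and neuron function (15 of 55). This order depends on list length: the short myeloid and heart lists had 7 of 13 and 8 of 21. Starting entries also passed the filter only through their 24 hpf counts. The counts depend on the cutoff: with no count at all in the silent group they were 358 starting and 16 ending, and with at most 10 counts 1116 and 138. Without 1 bud library at a time, which loosens the rule and the filter by construction, the number starting was 1018 to 1036, and without 1 of the 24 hpf libraries the number ending was 111 to 115. Without bud replicate 2, 74 ended.

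A few starting genes had also been counted at earlier stages. Of the 652, 33 averaged at least 5 CPM at the 1-cell stage, 33 at 256-cell, 26 at dome and 8 at shield. The clearest cases, chosen after their values were seen, were lhx8, which averaged 176 CPM at the 1-cell stage, 57.6 at 256-cell, 24.7 at dome and 3.60 at shield, had no count at bud and averaged 2.69 ± 0.557 CPM at 24 hpf, and phactr2, with 47.3, 14.8, 14.2 and 0.372 CPM at the 4 early stages and 6.199 ± 1.71 CPM at 24 hpf. For ending genes the early course was different: 14 of the 49 reached 5 CPM at the 1-cell stage, 12 at 256-cell, 18 at dome and 29 at shield.

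Over all 6 wild-type stages falling genes peaked at different times. Their CPM were scaled across 22 libraries and are not interchangeable with those above: hoxb1b at bud averaged 485 CPM on this scale and 363 CPM on the other. The organizer gene chrd averaged 0.661 CPM at 1-cell, 1.01 at 256-cell, 232 at dome, 728 at shield, 685 at bud and 6.37 at 24 hpf. The somite gene tbx16 averaged 323 CPM at dome, 643 at shield, 172 at bud and 1.01 at 24 hpf. Both means were highest at shield. Others were highest at bud among the 6 stages: rx3 averaged 3.68 CPM at dome, 1.05 at shield, 313 at bud and 11.3 at 24 hpf, and six7 4.79 at shield, 121 at bud and 0.176 at 24 hpf. The gene hoxb1b averaged 4.00 CPM at shield, 485 at bud and 81.5 at 24 hpf. The midbrain-hindbrain gene her5 had 2 high points, at 95.9 CPM in dome, 10.4 in shield, 32.9 in bud and 2.23 at 24 hpf. Among the abundant rising genes, krt4 and cyt1l were present well before 24 hpf. The keratin krt4 averaged 9.21 CPM at 256-cell, 205 at dome, 1715 at shield, 4170.2 at bud and 15101 at 24 hpf, and cyt1l averaged 17.1 CPM at dome, 232 at shield, 1081 at bud and 9668 at 24 hpf.

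**Figure D4:**
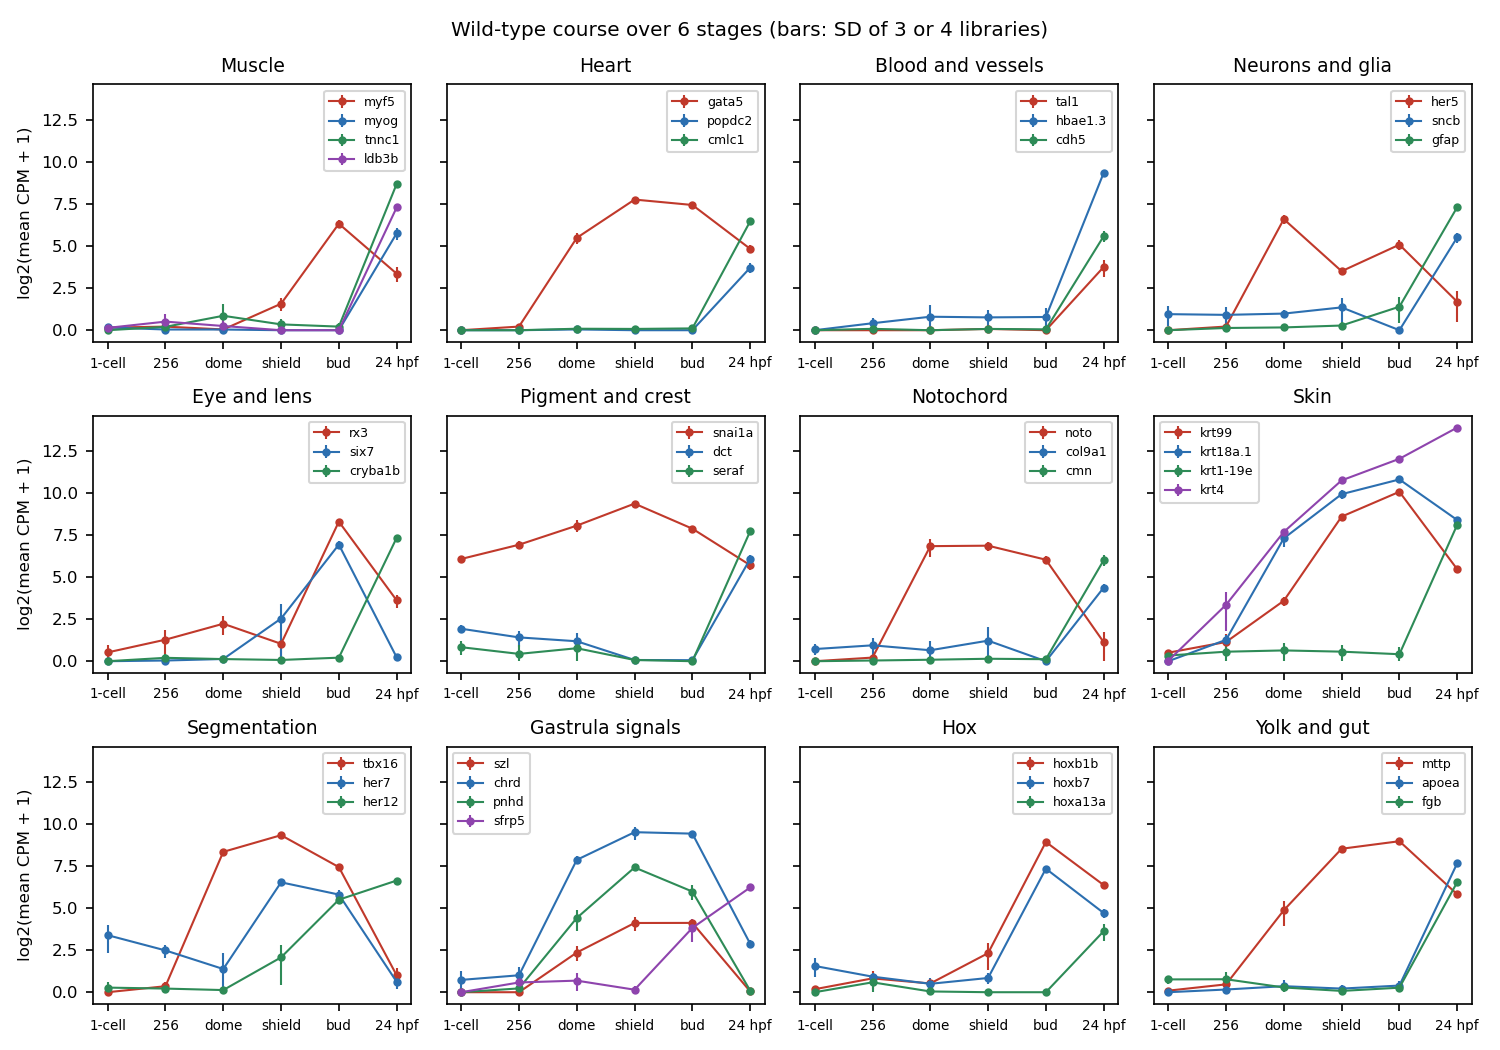
Mean level of named genes over the 6 wild-type stages as log2(mean CPM + 1) (vertical axis) against stage (horizontal axis), in 12 panels by tissue; bars are the SD of 3 or 4 libraries. In several panels one gene falls after bud while another rises, for instance rx3 and cryba1b in the eye panel or noto and cmn in the notochord panel.

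The same interval was measured again in rif1 mutants, which share no library with wild type. There, 7129 of 12003 entries tested (59.4%) were called, 3892 higher at 24 hpf (32.4%) and 3237 lower (27%). Of 11565 entries tested in both genotypes, 4039 were higher in wild type, of which 3331 (82.5%) were called higher in the mutants too, and 3080 were lower in wild type, of which 2491 (80.9%) were called lower in the mutants. Seen from the mutants, 88.3% of 3771 higher and 77.9% of 3197 lower entries were called the same way in wild type. Called in opposite directions were 19 entries. Across genes, which are not independent replicates, the log2 changes correlated at r = 0.918. In the mutants, 60 sarcomere entries, 27 blood, 47 neuron function and 37 eye and lens entries rose, and 0, 3, 1 and 5 entries of these lists fell. Of the gastrula factors 38 fell and 3 rose, and of the segmentation entries 31 fell and 6 rose. The number tested per list in the mutants was not tabulated, so these counts cannot be read as shares against the 32.4% and 27% of all entries.

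**Figure D5:**
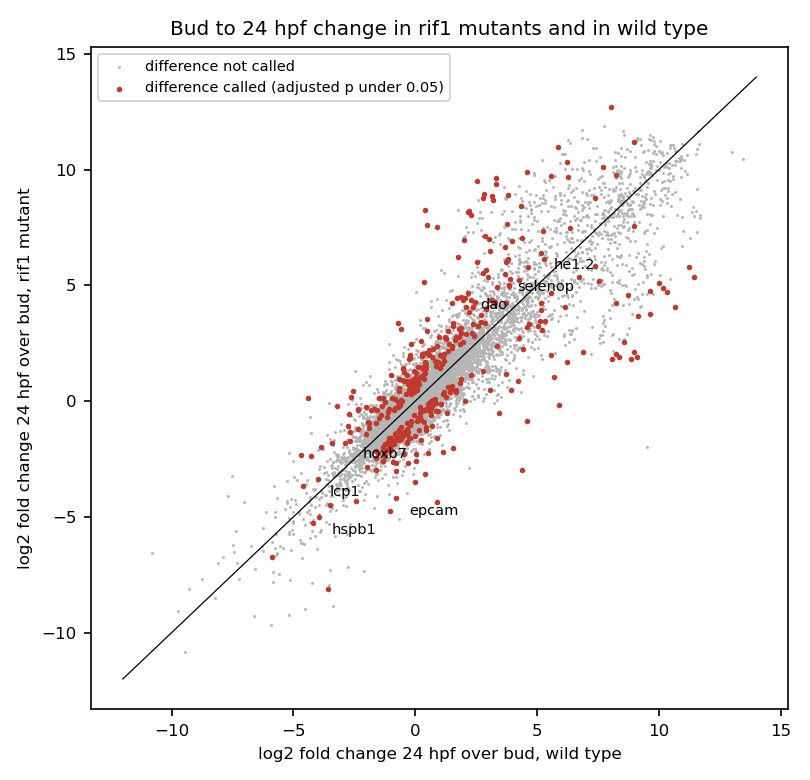
Log2 fold change of 24 hpf over bud in rif1 mutants (vertical axis) against wild type (horizontal axis), one point per gene entry; red points are entries whose difference between the genotypes was called, and the line marks equal change. Most points lie along the line, and epcam is the labelled gene farthest below it.

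The difference between the genotypes was tested as an interaction over 16 libraries (mutant change minus wild-type change). It was called for 398 of 13659 entries (2.91%), 226 with the higher change in mutants (1.65%) and 172 with the lower (1.26%). At 1 log2 unit or more it was called for 261 (1.91%), 165 higher in mutants (1.21%) and 96 lower (0.703%). The 4 smallest p-values belonged to epcam, pc, dao and selenop, with mutant and wild-type CPM scaled separately. The cell adhesion gene epcam (ENSDARG00000040534) averaged 16.9 ± 4.01 CPM at 24 hpf and 309.6 ± 60.2 CPM at bud in mutants, against 338 ± 25.2 and 578 ± 23.5 CPM in wild type, a difference of -3.34 ± 0.19 log2 units (edgeR adjusted p = 1.32e-11). The selenium transport gene selenop averaged 802 ± 117 CPM at 24 hpf and 17.9 ± 3.97 CPM at bud in mutants, against 348 ± 18.4 and 27.1 ± 3.24 CPM in wild type, a difference of 1.88 ± 0.18 (edgeR adjusted p = 2.02e-07). The amino acid oxidase gene dao averaged 276 ± 26.0 CPM at 24 hpf and 10.6 ± 1.74 CPM at bud in mutants, against 221 ± 59.5 and 49.2 ± 7.92 CPM in wild type, a difference of 2.60 ± 0.23 (edgeR adjusted p = 8.04e-08). The carboxylase gene pc averaged 271 ± 40.2 CPM at 24 hpf and 5.67 ± 2.04 CPM at bud in mutants, against 167 ± 19.1 and 23.9 ± 1.35 CPM in wild type, a difference of 2.83 ± 0.23 (edgeR adjusted p = 6.14e-09). In both genes the ratio between the genotypes was farther from 1 at bud, where the mutants were lower, than at 24 hpf, where they were higher. Among the genes named above, the fall of hspb1 was larger in mutants (-5.02 log2 units in mutants, -3.95 in wild type), and the falls of lcp1 and hoxb7 were smaller (-3.36 and -1.74 in mutants, -4.01 and -2.67 in wild type). The rise of he1.2 was larger in mutants (6.41 log2 units, against 5.18 in wild type; edgeR adjusted p of the difference 0.00156). For the other named genes tested in the interaction except sncb and znfl1l the difference was not called, which does not show that the genotypes change alike.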

How the data were processed

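RNA from pools of whole embryos was read from the 3′ end, per the labels' protocols, and STAR, HTSeq and genome build GRCz11 appear in the submitters' processing notes without role or version. The authors deposited raw counts per gene, whole numbers without normalization, for 31877 entries; 24372 had a count. Use of strand is not given in the sources used here, so overlapping or antisense genes may share reads. Symbols were matched to 28877 identifiers, and the 6086 entries sharing a symbol were not named by rule. Columns were grouped by genotype and stage labels. Counts of 24 hpf and bud libraries alone were fitted in R 4.3.3 with edgeR 4.0.16 (limma 3.58.1; robust quasi-likelihood, TMM, filterByExpr) and Benjamini-Hochberg adjusted p under 0.05; the SE is the log2 fold change over the root of F. CPM use TMM factors. The interaction used 16 libraries. Recovery was checked on simulated counts, with 100 genes changed by 2 log2 units and 100 by 1. For wild-type 24 hpf against bud (11888 genes, 11688 of them unchanged), 96% and 70% of these were recovered. For the interaction (13108 genes), 83% and 34% were recovered, so many differences of 1 log2 unit would be missed. In the data most entries were called, unlike in the simulation, and recovery was not split by expression level. These rates may therefore not hold for the data, least of all near the floor. Alternatives were RLE factors, library totals, DESeq2 1.42.0, no filter, a filter of 10 counts per library, all 12 groups in one model, a replicate block and leaving out each library.

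Genes were named by a rule: called, a change of 1 log2 unit or more, a higher-group mean of 5 CPM or more, libraries that do not overlap, and an unshared symbol. It took the 6 largest rises and falls, the 4 largest gains and losses in CPM, 2 rises and 2 falls per list, rif1 and the 4 smallest interaction p-values. Of the last, pc shares its symbol. The lists, from general knowledge, and the members were chosen with earlier results of these data known. The 95% intervals and the floor of 3 counts cover counting error only. Replicate numbers showed no pairing of the samples: deviations from the group means correlated between -0.0348 and 0.0258 over all pairs. Values this low between 2 unlike stages do not show that the samples were unpaired. Promoter sequences were not analysed here.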

Additional observations from a re-analysis of the deposited data

Results flagged for a closer look

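Single libraries lay far from the other 3 of their group in 16 values of the named genes, by Dixon's test of the gap against the range. In groups averaging at least 1 CPM these were ccne1 in wild-type 24 hpf replicate 3 (19.4 CPM), elavl2 in 24 hpf replicate 3 (0 CPM), her11 in 24 hpf replicate 3 (6.23 CPM) and in bud replicate 1 (36.6 CPM), tyms in 24 hpf replicate 2 (68.7 CPM) and krt18a.1 in bud replicate 2 (1169.8 CPM). The others lay in groups averaging under 1 CPM, where a few counts make the gap. At 24 hpf they were alox5b.3 (0 CPM) and szl (0.107 CPM), both in replicate 3. At bud they were hoxc11 in replicate 1 (0.847 CPM), fga in replicate 2 (0.868 CPM), cmn (0.258 CPM), dct (0.129 CPM), mymk (0.129 CPM) and rbp5 (2.06 CPM) in replicate 3, and cdh5 (0.110 CPM) and en1b (0.882 CPM) in replicate 4. Chance flags about 1 in 20 groups, and 2 groups were examined for each of 118 genes. In none of these 15 genes did leaving out a library change the call of the wild-type change.

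The bud to 24 hpf change differed between rif1 mutants and wild type in 10 named genes, by edgeR's interaction test (mutant change minus wild-type change, log2 units). The change was higher in mutants for pc (2.83), dao (2.60), selenop (1.88), he1.2 (1.31), hoxb7 (1.01) and lcp1 (0.73), and lower in mutants for epcam (-3.34) and hspb1 (-0.99). The difference for lcp1 (edgeR adjusted p = 0.0172) was lost without wild-type bud replicate 1 (edgeR adjusted p = 0.0606) and without wild-type 24 hpf replicate 4 (0.0547). The gene pc shares its symbol with another entry. The difference for sncb (-5.35; edgeR adjusted p = 0.0463) arose at bud, where wild type held no count and mutants averaged 0.449 ± 0.561 CPM, while at 24 hpf mutants averaged 27.2 ± 5.21 CPM and wild type 33.7 ± 7.12 CPM. It rests on a fitted fold against a group at 0, and with the replicate block its adjusted p was 0.112. The difference for znfl1l (11.98; edgeR adjusted p = 0.000745) likewise depends on the prior count. Mutants averaged 0.139 ± 0.277 CPM at 24 hpf and 0.0264 ± 0.0527 CPM at bud, against 0 and 15.6 ± 3.82 CPM in wild type, and without mutant 24 hpf replicate 3 its adjusted p was 1.00.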

How the results depend on the processing

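The direction and call of the 118 named genes were the same with RLE factors, DESeq2, no filter, one fit of 12 groups and the replicate block. Nearly all of them were named because they were called in the main fit with a change of 1 log2 unit or more. Their stability was therefore likely from the start and says little about the other calls. Library totals changed the call of rif1, and leaving out a library that of rif1 and of spag1a (-0.88, edgeR adjusted p = 0.0912, without bud replicate 3; -0.92, 0.0669, without 24 hpf replicate 2). With at least 10 counts in every library 55 of them were tested, and the counts of wild-type calls were 2582 higher, 2608 at 1 log2 unit, 1523 higher at 1 log2 unit and 1085 lower at 1 log2 unit; this filter removes genes silent at one stage by construction. It left 61 genes with a lower mutant change at 1 log2 unit. With no filter the difference between genotypes gave 663 calls (344 higher and 319 lower), and 473 at 1 log2 unit (269 higher and 204 lower); the cause was not tested. Replicate numbers showed no pairing of the samples, and the replicate block called 7001 genes in wild type (6943 shared, 455 lost, 58 gained).

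Leaving out each library in turn gave 6914 to 7824 wild-type calls (3995 to 4580 higher, 2919 to 3244 lower), and 4827 to 5423 at 1 log2 unit (3235 to 3701 higher, 1580 to 1722 lower). The number of entries tested changed as well, for instance to 13108 without wild-type bud replicate 2. The difference between genotypes gave 265 to 473 calls, 141 to 248 higher, 124 to 225 lower, and 184 to 301 at 1 log2 unit (111 to 180 higher, 73 to 123 lower). The lowest were without wild-type 24 hpf replicate 4 (265 calls, 141 higher), and without mutant bud replicate 3 there were 150 higher. Starting genes numbered 659 to 1036 and ending genes 61 to 115; with no count in the silent group 358 and 16, and with at most 10 counts 1116 and 138. The mutant change was rerun with RLE factors and library totals only. Promoter motifs were not run. Depth limits genes under about 1 CPM, where 3 counts are the floor.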

Other observations

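Glycolysis rose: of 24 tested entries 21 rose, 1 fell and 2 were not called (median 2.87), and their share of counts was 0.446% to 0.506% at 24 hpf, against 0.137% to 0.149% at bud. The muscle phosphoglycerate mutase pgam2, which is also a sarcomere list member, had 61.9, 63.7, 52.3 and 65.0 CPM at 24 hpf, against 0, 0, 0.258 and 0.221 CPM at bud (log2 fold change 8.82 ± 0.36, edgeR adjusted p = 2.57e-13). The pyruvate kinase pklr had 80.8, 90.6, 72.8 and 85.5 CPM at 24 hpf, against 1.21, 0, 5.79 and 0.772 CPM at bud (log2 fold change 5.44 ± 0.61, edgeR adjusted p = 3.1e-05). Hexokinases hk1 and hk2, chosen after their values were seen, were not called, with log2 fold changes of -0.11 and -0.39.

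Retinoid genes split, with 14 of 30 tested entries higher, 12 lower and 4 not called, and a median of 0.14 that turned to -0.07 with library totals alone. The retinol carrier rbp4 averaged 206 ± 37.4 CPM at 24 hpf and 1.87 ± 1.19 CPM at bud, and rbp5 23.5 ± 5.11 CPM at 24 hpf and 0.987 ± 0.716 CPM at bud (SD, n = 4 each). The receptor rxrb fell by 1.69 ± 0.45 log2 units (edgeR adjusted p = 0.00361). Of 20 tested light and clock entries 9 rose, 3 fell and 8 were not called (median 0.61). The clock repressor per3 had 17.4, 16.1, 12.2 and 17.98 CPM at 24 hpf, against 0, 0.496, 1.03 and 0.110 CPM at bud, and bhlhe40 averaged 60.2 ± 4.46 CPM at 24 hpf and 3.05 ± 1.55 CPM at bud. Of 26 tested motile cilia entries 4 rose, 7 fell and 15 were not called (median 0.40), out of 64 entries, so most were too low to test. The axonemal genes rsph1 and cfap45 rose by 1.27 ± 0.31 and 3.03 ± 0.79 log2 units (edgeR adjusted p = 0.00169 and 0.0029). The genes mns1 and spag1a fell by 2.15 ± 0.31 and 1.12 ± 0.39 (edgeR adjusted p = 8.33e-06 and 0.02).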
